A study of Kluyveromyces lactis with 12 samples.

Results

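YCF1 and FPS1 are the genes of Kluyveromyces lactis, a budding yeast, that carry the symbols of 2 transporters known for handling arsenic. They were found by their identifiers on the array, KLLA0F20075g for YCF1 and KLLA0E00617g for FPS1, and make 2 of the 5081 genes measured. The RNA came from 6 groups of cultures, namely the Klyap8 deletion strain and the wild type, each after sodium arsenite, after tert-butyl hydroperoxide (t-BOOH, an organic peroxide) and untreated. Every one of the 12 two-colour arrays carried deletion RNA in 1 dye and wild-type RNA of the same condition in the other, with 4 arrays per condition that the labels call biological experiments, and the dyes were swapped on 2 of each 4. Cells of all groups were in exponential growth in YPD, a rich medium, and the stress lasted 30 min. Per the labels t-BOOH was given at 0.25 mM, while for arsenite they disagree, with 25 mM in 1 field and 0.1 mM in another. The deletion strain lacks KlYap8, a transcription factor of the Yap family, and whether it came from 1 clone is not stated in the labels.

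Arsenite is a trivalent arsenic compound that reacts with protein thiols. In Saccharomyces cerevisiae, Fps1 is an aquaglyceroporin, a plasma membrane channel that lets glycerol out of the cell under low osmotic pressure and also lets arsenite through. Ycf1 is an ABC transporter of the vacuolar membrane that pumps glutathione conjugates, among them arsenite bound to glutathione, from the cytosol into the vacuole. In that yeast the factor Yap8, whose gene is also called ARR1, controls the arsenate reductase gene ARR2 and the arsenite exporter gene ARR3, while YCF1 is a target of the related factor Yap1. The roles given for the genes below are those of the S. cerevisiae genes of the same symbol.

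YCF1 and FPS1 each had 1 probe, spotted on the array in 2 places. Both probes were well above background in both dyes on all 12 arrays, no spot of either was saturated or left out, and the log2 ratios of the 2 spots differed by at most 0.18 for YCF1 and 0.11 for FPS1. Signal above background ran from 1802 to 23832 intensity units for YCF1 and from 329.75 to 4662 for FPS1 over the 24 channels. Different probes differ in how strongly they bind, so the level of YCF1 was not set against that of FPS1. The ARR1 probe, a check on the deletion, read lower in deletion RNA on each of the 12 arrays, with a mean log2 ratio of deletion over wild type of -2.09 ± 0.13 with arsenite, -1.69 ± 0.13 with t-BOOH and -1.13 ± 0.35 untreated (SD, n = 4). ARR2, the neighbour and known target of ARR1, had ratios of -4.40 ± 0.21, -1.95 ± 0.12 and -1.65 ± 0.28 in the same order. Whether the ARR1 probe falls inside the deleted stretch is unknown here. Over all genes, the mean correlation of an array's log2 levels with those of its fellow replicates was 0.994 to 0.996 for arsenite and lowest for untreated replicate 4 (0.937) and t-BOOH replicate 1 (0.917). For log2 ratios the lowest mean correlation was 0.03, on t-BOOH replicate 3. Results that turn on these 3 arrays are given below with and without them.

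YCF1 was higher after both stresses than in untreated cells, in both strains. Arsenite raised it 2.11-fold in the deletion strain and 2.74-fold in the wild type, and t-BOOH raised it 2.39-fold in the deletion strain and 2.95-fold in the wild type. Levels here are log2 intensities per channel, normalized within and between arrays. With arsenite, the deletion strain had YCF1 levels of 13.03, 12.88, 12.84 and 12.94 on replicates 1 to 4 and the wild type 13.21, 13.08, 12.98 and 13.00. With t-BOOH, they were 13.17, 12.95, 13.21 and 13.09 in the deletion strain and 13.28, 13.30, 12.81 and 13.32 in the wild type. Untreated cells had 11.84, 11.67, 11.94 and 11.94 in the deletion strain and 11.68, 11.55, 11.74 and 11.50 in the wild type. All 16 stressed values lay above all 8 untreated ones, and the lowest stressed value was that of the wild type on t-BOOH replicate 3. Both strains of a condition share its 4 arrays, and the share of all genes with this joint pattern was not counted. Within a strain, such a gap between 4 arsenite and 4 untreated values was found for 13.3% of all genes in the deletion strain and 17.7% in the wild type, and between t-BOOH and untreated values for 18.4% and 20.1%.

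**Figure D1:**
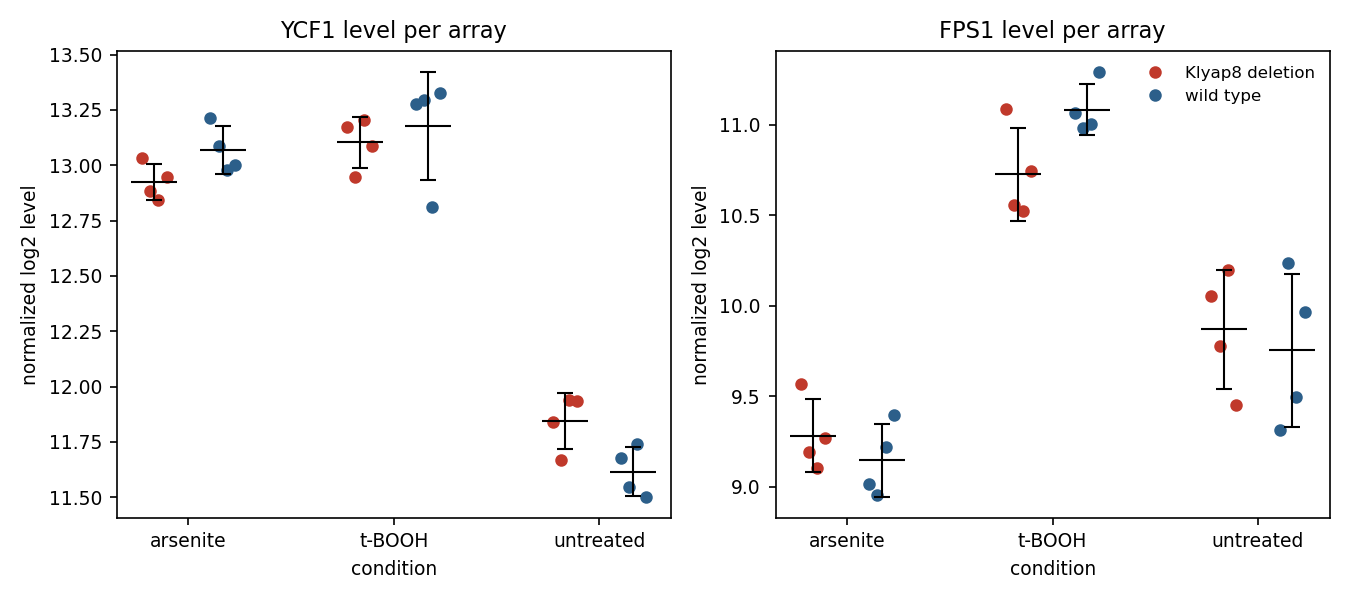
YCF1 (left) and FPS1 (right) normalized log2 level on each array, by condition (x axis) and strain (red, Klyap8 deletion; blue, wild type). Points are the 4 replicates in order, and black bars the mean and SD. YCF1 is near 13 after both stresses and under 12 in untreated cells, while FPS1 is highest with t-BOOH and lowest with arsenite, and the y axes differ between panels.

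By limma's separate-channel test across 5069 genes, YCF1 rose with arsenite by 1.08 on the log2 scale in the deletion strain (SE 0.15, adjusted p = 7.02e-05) and by 1.45 in the wild type (SE 0.15, adjusted p = 7.75e-07). A Benjamini-Hochberg adjusted p under 0.05 was called. Of all genes, 6.29% were called higher with arsenite in the deletion strain and 12.5% in the wild type, and YCF1 ranked 104th and 97th from the top. With t-BOOH the rise was 1.26 in the deletion strain (SE 0.15, adjusted p = 7.62e-07) and 1.56 in the wild type (SE 0.15, adjusted p = 3.26e-08). The called share was larger for t-BOOH, with 24.1% of genes higher in the deletion strain and 27.3% in the wild type, and YCF1 ranked 247th and 196th. Arsenite and untreated arrays lay on 1 slide, and the fit on these arrays alone gave rises of 0.99 in the deletion strain (adjusted p = 2.48e-05) and 1.36 in the wild type (adjusted p = 5.62e-07). The t-BOOH arrays lay on another slide, so slide and condition cannot be told apart in any comparison with t-BOOH. Since RNA came from whole cultures, a change in the number of cells with the transcript and a change in its amount per cell cannot be told apart either.

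The YCF1 levels of the 2 stresses were close. With arsenite the mean was 12.93 ± 0.08 in the deletion strain and 13.07 ± 0.11 in the wild type, with t-BOOH 13.10 ± 0.12 and 13.18 ± 0.25, and untreated 11.85 ± 0.13 and 11.62 ± 0.11 (SD, n = 4 each). From the highest mean down, the order was the wild type with t-BOOH, the deletion strain with t-BOOH, the wild type with arsenite and the deletion strain with arsenite, each overlapping the next. After a step of 1.08 came the untreated deletion strain and the untreated wild type, which overlapped each other. Arsenite minus t-BOOH was -0.18 in the deletion strain (95% interval -0.49 to 0.13, adjusted p = 0.355) and -0.11 in the wild type (95% interval -0.42 to 0.21, adjusted p = 0.575), and neither passed the test. Without normalization between arrays these differences had the opposite sign, 0.46 and 0.53, as did the median of all genes, which stood at 0.77 and 0.80. Set against that median they were -0.31 in the deletion strain and -0.27 in the wild type.

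FPS1 differed in level between the 2 stresses, but the t-BOOH arrays lay on a slide of their own, so slide and stress cannot be told apart. FPS1 was higher with t-BOOH than in untreated cells, 1.81-fold in the deletion strain and 2.52-fold in the wild type. It was lower with arsenite than with t-BOOH, 2.72-fold in the deletion strain and 3.83-fold in the wild type. With arsenite, FPS1 had levels of 9.57, 9.19, 9.10 and 9.27 in the deletion strain and 9.02, 8.95, 9.22 and 9.40 in the wild type. With t-BOOH, the levels were 11.09, 10.56, 10.52 and 10.74 in the deletion strain and 11.06, 10.98, 11.00 and 11.29 in the wild type. Untreated cells had 10.06, 9.78, 10.19 and 9.45 in the deletion strain and 9.32, 10.24, 9.50 and 9.96 in the wild type. All 8 t-BOOH values lay above the other 16, while the arsenite and untreated values overlapped in both strains. Both strains of a condition share its 4 arrays, and the share of all genes with this joint pattern was not counted. For 25.9% of all genes in the deletion strain and 26.1% in the wild type, the 4 arsenite values lay below the 4 t-BOOH values. The 4 t-BOOH values lay above the 4 untreated values for 18.4% and 20.1% of all genes, deletion strain first.

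The rise of FPS1 with t-BOOH was 0.86 on the log2 scale in the deletion strain (SE 0.27, adjusted p = 0.0148) and 1.33 in the wild type (SE 0.27, adjusted p = 3.94e-04). With t-BOOH 24.1% of all genes were called higher in the deletion strain and 27.3% in the wild type. The FPS1 call in the deletion strain ended without untreated replicate 4 and t-BOOH replicates 1 and 3 (0.52, adjusted p = 0.0722). It also ended in a fit on the t-BOOH and untreated arrays alone (0.87, adjusted p = 0.0548). Arsenite minus t-BOOH was -1.45 in the deletion strain (SE 0.27, adjusted p = 2.35e-04) and -1.94 in the wild type (SE 0.27, adjusted p = 6.84e-06). In the deletion strain 24.2% of all genes were called lower with arsenite than with t-BOOH, and 27.8% in the wild type, and only 2.56% and 1.85% of genes had a more negative difference than FPS1. Without normalization between arrays none of these 4 FPS1 differences passed the test, with values of 0.04 and 0.52 for t-BOOH over untreated and -0.34 and -0.84 for arsenite over t-BOOH, deletion strain first in each pair. Relative to the median of all genes at that setting they were 0.53 and 0.99, and -1.11 and -1.64.

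Arsenite against untreated did not pass the test for FPS1. The difference was -0.59 in the deletion strain (95% interval -1.16 to -0.02, adjusted p = 0.197) and -0.61 in the wild type (95% interval -1.18 to -0.04, adjusted p = 0.116). The fit within the 1 slide that held both conditions gave -0.59 (adjusted p = 0.152) and -0.61 (adjusted p = 0.0966). The shares of genes called lower were 3.71% in the deletion strain and 10.5% in the wild type. Both values passed without untreated replicate 4 and t-BOOH replicates 1 and 3, at -0.77 (adjusted p = 0.00585) and -0.52 (adjusted p = 0.0347), and the wild-type value also passed without t-BOOH replicate 1 alone (adjusted p = 0.0470). Mean FPS1 levels were 9.28 ± 0.20 in the deletion strain and 9.15 ± 0.20 in the wild type with arsenite, 10.73 ± 0.26 and 11.08 ± 0.14 with t-BOOH, and 9.87 ± 0.33 and 9.75 ± 0.42 untreated (SD, n = 4 each). In falling order of mean, the wild type and the deletion strain with t-BOOH overlapped each other and were set apart from the rest. The untreated deletion strain, the untreated wild type, the deletion strain with arsenite and the wild type with arsenite followed, each overlapping the next.

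**Figure D2:**
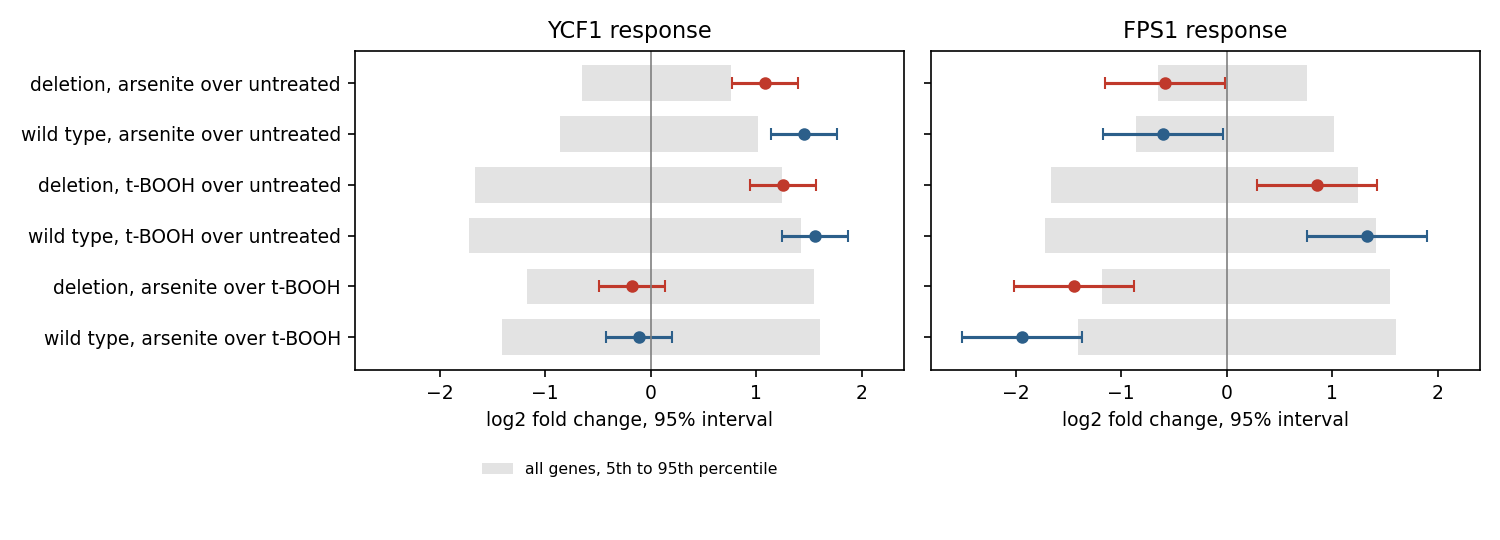
Log2 fold changes of YCF1 (left) and FPS1 (right) for 6 comparisons of levels within a strain (red, Klyap8 deletion; blue, wild type), with 95% intervals from the fit. Grey bars span the 5th to the 95th percentile of all 5069 genes. YCF1 lies above the grey bars for both stresses over untreated, at 1.08 to 1.56, and FPS1 lies below them for arsenite over t-BOOH, at -1.45 and -1.94.

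The question of whether KlYap8 bears on either gene was asked by the log2 ratio of deletion over wild type within each array. With equal weight for all arrays, no condition gave a called ratio for YCF1 or FPS1 by limma, and none had an unadjusted p under 0.05, the lowest being 0.0597 for YCF1 in untreated cells. With limma's array weights, which ran from 0.23 on t-BOOH replicate 3 to 6.22 on t-BOOH replicate 2, the t-BOOH ratio was called for both genes, at -0.27 for YCF1 (adjusted p = 0.00892) and -0.52 for FPS1 (adjusted p = 0.0135). At those weights 2630 genes were called for that ratio, against 914 with equal weights. With equal weights the share of genes called in either direction was 4.3% with arsenite, 18% with t-BOOH and 0.612% untreated. YCF1 had ratios of -0.18, -0.20, -0.13 and -0.06 on the arsenite arrays, -0.10, -0.35, 0.40 and -0.24 on the t-BOOH arrays and 0.16, 0.12, 0.20 and 0.43 on the untreated arrays. All 4 arsenite values were below 0 and all 4 untreated values above 0, while the t-BOOH values fell on both sides. The means were -0.14 ± 0.06 with arsenite (95% interval -0.38 to 0.10, adjusted p = 0.466), -0.07 ± 0.33 with t-BOOH (-0.31 to 0.17, adjusted p = 0.686) and 0.23 ± 0.14 untreated (-0.01 to 0.47, adjusted p = 0.512), with SD over 4 arrays and intervals and p from limma. The t-BOOH mean was -0.23 without t-BOOH replicate 3 (adjusted p = 0.0993) and 0.0093 without t-BOOH replicate 2 (adjusted p = 0.976). The arsenite interval corresponds to a YCF1 level in the deletion strain of 0.77 to 1.07 times that of the wild type. The fit pooled the spread of a gene over the 3 conditions, so YCF1 had the same SE, 0.11, in each. The arsenite interval thus also carries the wider spread of the t-BOOH arrays.

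The difference of the YCF1 ratio between arsenite and untreated was -0.37 (SE 0.16, 95% interval -0.71 to -0.03), which is also the amount by which the response of the deletion strain to arsenite fell short of that of the wild type. Its unadjusted p was 0.0338 and its adjusted p 0.468, so it was not called. Of all genes, 0.0395% were called for this difference and 9.57% had an unadjusted p under 0.05, and 0.71% shared the pattern of 4 arsenite ratios below 0 and 4 untreated ratios above 0. For t-BOOH minus untreated the YCF1 difference was -0.30 (SE 0.16, adjusted p = 0.258), and for arsenite minus t-BOOH -0.07 (SE 0.16, adjusted p = 0.809), where 2.84% and 8.01% of genes were called. Without t-BOOH replicate 3, whose ratio of 0.40 lay apart from the other 3, t-BOOH minus untreated was -0.46 and passed the test (adjusted p = 0.0276), as it did with array weights (-0.47, adjusted p = 0.00949). Arsenite minus t-BOOH then had the opposite sign, both with that array left out (0.08, adjusted p = 0.689) and with array weights (0.11, adjusted p = 0.387).

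**Figure D3:**
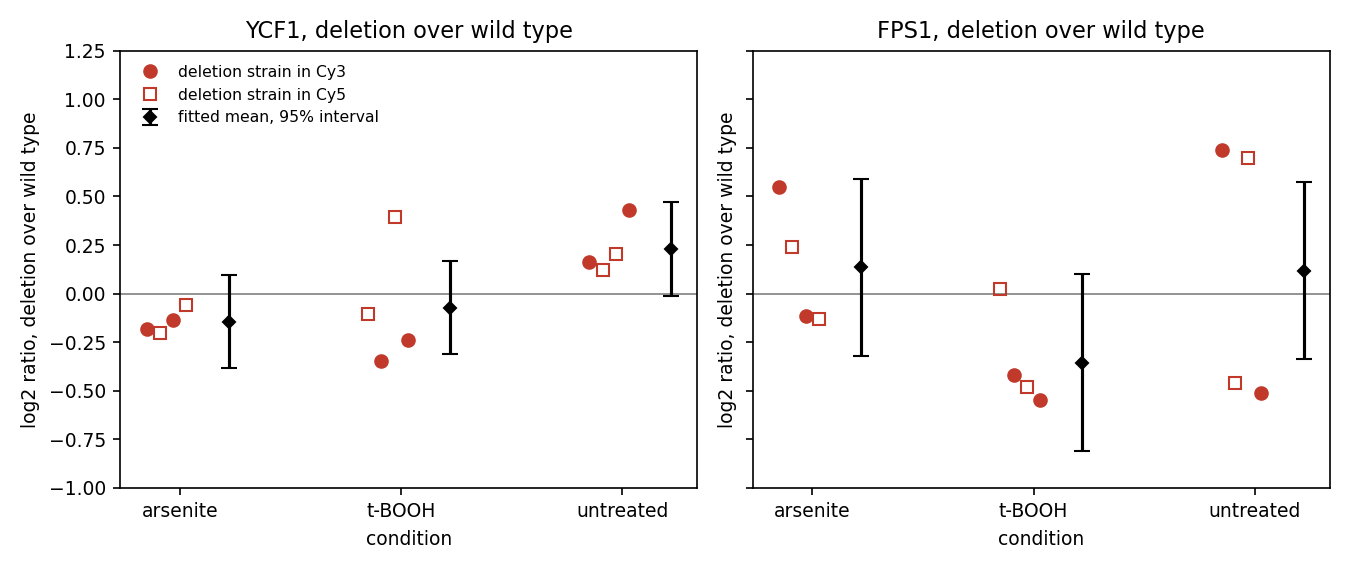
Log2 ratio of Klyap8 deletion over wild type on each array for YCF1 (left) and FPS1 (right), by condition (filled circles, deletion strain in Cy3; open squares, deletion strain in Cy5). Black diamonds are the fitted means with 95% intervals, and the grey line marks equal levels. YCF1 ratios are all below 0 with arsenite and all above 0 untreated, and the untreated FPS1 ratios form a high pair near 0.7 and a low pair near -0.5.

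FPS1 ratios had a larger SD between arrays than those of YCF1 with arsenite and untreated, and a smaller one with t-BOOH. They were 0.55, 0.24, -0.12 and -0.13 with arsenite, 0.02, -0.42, -0.48 and -0.55 with t-BOOH, and 0.74, -0.46, 0.70 and -0.51 untreated. The arsenite and untreated values fell on both sides of 0, and 3 of the 4 t-BOOH values were below it. The means were 0.14 ± 0.32 with arsenite (95% interval -0.32 to 0.59, adjusted p = 0.751), -0.36 ± 0.26 with t-BOOH (-0.81 to 0.10, adjusted p = 0.261) and 0.12 ± 0.70 untreated (-0.34 to 0.57, adjusted p = 0.892). The untreated SD was larger than that of 98.2% of genes, whose median SD was 0.23. The pooled fit gave FPS1 the same SE, 0.21, in each condition, so its untreated interval does not rest on the untreated spread alone. In untreated cells the ratio was high on replicates 1 and 3 and low on replicates 2 and 4, and each pair held both dye orientations, so the split did not follow the dye. The 2 spots of the probe gave the same sign on 11 of 12 arrays. Differences of the FPS1 ratio between conditions were 0.02 for arsenite minus untreated (SE 0.30, adjusted p = 0.989), -0.47 for t-BOOH minus untreated (SE 0.30, adjusted p = 0.357) and 0.49 for arsenite minus t-BOOH (SE 0.30, adjusted p = 0.322), none called. With array weights the other two, t-BOOH minus untreated and arsenite minus t-BOOH, were called, at -0.72 (adjusted p = 0.0395) and 0.81 (adjusted p = 0.00594). The arsenite ratio turned to -0.025 without arsenite replicate 1, and the untreated ratio fell below 0, to as low as -0.12, without untreated replicate 1 or 3. The difference between them turned without arsenite replicate 1 or 2 or untreated replicate 2 or 4, to as low as -0.21.

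GUT1, the glycerol kinase gene that lies next to FPS1 on chromosome E, had the same split in untreated cells. Its ratios were 1.71, -0.25, 1.91 and -0.18 on untreated replicates 1 to 4, against FPS1 ratios of 0.74, -0.46, 0.70 and -0.51 on the same arrays. This likeness was noticed after the values were seen and was given no test. The untreated GUT1 levels were 16.25, 15.14, 16.17 and 12.15 in the deletion strain and 14.54, 15.39, 14.25 and 12.33 in the wild type, so untreated replicate 4 was low in both strains. With t-BOOH, GUT1 was called lower than untreated in the deletion strain (-2.08, SE 0.60, adjusted p = 0.00711), the opposite direction to FPS1, and had -0.77 in the wild type (SE 0.60, adjusted p = 0.297).

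Of the 6 ABC transporter genes of the subfamily that holds YCF1, 3 were matched by symbol. These were YCF1, BPT1, a second vacuolar pump for glutathione conjugates, and YOR1, a plasma membrane exporter of organic anions. With arsenite, 1 of 3 rose in the deletion strain and 2 of 3 in the wild type, and with t-BOOH 2 of 3 and 3 of 3, YCF1 among them each time. Of all genes, 6.29% and 12.5% were called higher with arsenite and 24.1% and 27.3% with t-BOOH, deletion strain first in each pair, and 3.71% and 10.5% were called lower with arsenite and 19.4% and 22.2% with t-BOOH. The median change was 0.58 and 0.91 with arsenite and 0.81 and 0.92 with t-BOOH, deletion strain first in each pair, where the medians of all genes were -0.03, -0.03, 0.07 and 0.08 in the same order. YOR1 rose in the wild type by 0.91 with arsenite (adjusted p = 0.00351) and by 0.92 with t-BOOH (adjusted p = 0.00107). BPT1 rose with t-BOOH by 0.81 in the deletion strain (adjusted p = 0.00673) and by 0.72 in the wild type (adjusted p = 0.0129), and had 0.37 and 0.04 with arsenite, which did not pass. By limma none of the 3 had a called ratio of deletion over wild type in any condition, and an unadjusted p under 0.05 was found for 0 with arsenite, 1 with t-BOOH and 0 untreated. In the same order, 22.6%, 33.4% and 10.4% of all genes had such a p.

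The list of arsenic export genes and their regulators had 10 names, of which 4 were matched, namely YCF1, FPS1, ARR1 and ARR2. With arsenite, YCF1 and ARR2 rose in the deletion strain and YCF1, ARR1 and ARR2 in the wild type. With t-BOOH, 3 of 4 rose in the deletion strain, all but ARR1, and all 4 in the wild type. ARR1 is the gene deleted in that strain, and with it set aside the same genes rose in both strains. The counts of the 2 strains are therefore no comparison of their responses. Of all genes, 6.29% and 12.5% were called higher with arsenite and 24.1% and 27.3% with t-BOOH, deletion strain first in each pair. ARR2 rose 2.0-fold with arsenite in the deletion strain and 13.4-fold in the wild type, and its ratio of deletion over wild type differed between arsenite and untreated by -2.75 (SE 0.16, adjusted p = 2.64e-06), beside the -0.37 of YCF1. ARR1 and ARR2 were the members called for the ratio, and both were lower in the deletion strain in all 3 conditions. The genes with the names ARR3 and YAP1 were not matched by symbol and were not analysed here.

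FPS1, HOG1 and SLT2 were the 3 matched of 10 names for aquaporins and proteins that act on Fps1. Hog1 and Slt2 are the MAP kinases of osmotic stress and of cell wall stress, and Hog1 phosphorylates Fps1. HOG1 was not called in any comparison, with 0.21 in the deletion strain and 0.02 in the wild type for arsenite over untreated and 0.42 and 0.18 for t-BOOH over untreated. SLT2 rose in the wild type by 0.60 with arsenite (adjusted p = 0.00828) and by 0.78 with t-BOOH (adjusted p = 2.95e-04), and had 0.44 and 0.27 in the deletion strain, which did not pass.

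Glycerol metabolism and osmotic signalling, the setting of Fps1 in S. cerevisiae, had 15 matched genes of 25 names. With arsenite, 0 of 15 were called by limma in the deletion strain and 0 had an unadjusted p under 0.05, which 23.8% of all genes had. In the wild type 0 rose and 1 fell, and 1 had an unadjusted p under 0.05, against 35.6% of all genes. That gene was SHO1, an osmosensor (-0.71, adjusted p = 0.0458), whose call was lost in 9 of the 12 fits that left out 1 array, with values of -0.86 to -0.37. With t-BOOH, 3 rose and 4 fell in the deletion strain, and 5 rose and 1 fell in the wild type, where 24.1% and 27.3% of all genes rose and 19.4% and 22.2% fell, so that most of these counts of 15 lie near the share of all genes. Those named by the size of the change over untreated in the deletion strain were GUT1 and HOT1, a transcription factor of glycerol synthesis genes (-0.85, adjusted p = 0.0154), both lower with t-BOOH. In the wild type they were STE11, a kinase upstream of Hog1 (1.15, adjusted p = 7.01e-05), and YPD1, a phosphorelay protein (1.07, adjusted p = 3.20e-04), both higher with t-BOOH. The HOT1 call was lost without untreated replicate 1 (-0.74, adjusted p = 0.0635) or 2 (-0.75, adjusted p = 0.0587). The list's median change with t-BOOH was -0.14 in the deletion strain and 0.46 in the wild type, where all genes had 0.07 and 0.08. For the ratio with t-BOOH, GUT2, the mitochondrial glycerol 3-phosphate dehydrogenase, was the single member called, at -1.28 (SE 0.29, adjusted p = 0.0114), and leaving out t-BOOH replicate 1, 2 or 4 ended the call, with adjusted p up to 0.0775. It was also the single member called for the difference of the ratio, t-BOOH minus untreated (-1.74, adjusted p = 0.0463), a call lost in most fits that left out 1 array. GUT1, HOT1, STE11 and YPD1 were thus not called to respond differently in the 2 strains.

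Glutathione, the partner that arsenite must bind before Ycf1 moves it, was followed through 18 matched genes of 23 names for its synthesis, transport and conjugation. With arsenite, 5 rose and 1 fell in the deletion strain, and 7 rose and 4 fell in the wild type. With t-BOOH, 8 rose and 3 fell in the deletion strain, and 8 rose and 4 fell in the wild type. Against these counts of 18 stand the shares of all genes, with 6.29% and 12.5% higher and 3.71% and 10.5% lower with arsenite, and 24.1% and 27.3% higher and 19.4% and 22.2% lower with t-BOOH. The counts that fell with t-BOOH lie near those shares. The medians were 0.37 and 0.41 with arsenite and 0.20 and 0.24 with t-BOOH, deletion strain first in each pair. ECM4, an omega-class glutathione transferase, rose with arsenite by 1.13 in the deletion strain (adjusted p = 0.0230) and by 1.94 in the wild type (adjusted p = 1.38e-04), and its ratio of deletion over wild type with arsenite was called at -0.76 (SE 0.16, adjusted p = 0.0211). The ECM4 rise in the deletion strain lost its call without arsenite replicate 1, 2 or 4 (adjusted p up to 0.0819), and its ratio without arsenite replicate 1, 2 or 3 (adjusted p up to 0.194). OPT1, a transporter of glutathione and small peptides, rose with arsenite by 1.19 in the deletion strain (adjusted p = 5.93e-04). GSH2, glutathione synthetase, rose with t-BOOH by 1.44 in the deletion strain (adjusted p = 3.90e-06).

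Within the glutathione genes, some differed in level between the 2 stresses as FPS1 did and some in the opposite direction. GEX1, a glutathione exchanger, rose with t-BOOH by 2.53 in the wild type (adjusted p = 7.18e-08) and was lower with arsenite than with t-BOOH by -1.74 (adjusted p = 1.28e-05), the direction of FPS1. GEX1 was also lower in the deletion strain than in the wild type with t-BOOH, at -0.72 (SE 0.14, adjusted p = 0.00423). This call was lost at 1 of 14 alternative settings other than single arrays left out (adjusted p = 0.0891). OPT1 was higher with arsenite than with t-BOOH, by 2.11 in the deletion strain (adjusted p = 5.98e-08) and 2.07 in the wild type (adjusted p = 5.10e-08). STR3, a cystathionine beta-lyase, was higher with arsenite than with t-BOOH in the deletion strain, by 1.67 (adjusted p = 6.50e-04). GTT3 fell with arsenite in the wild type (-1.36, adjusted p = 1.95e-04). For differences of the ratio between conditions, GEX1 was the single glutathione gene called, for t-BOOH minus untreated (-1.12, adjusted p = 0.0231) and arsenite minus t-BOOH (1.23, adjusted p = 0.00795). The first of these calls was lost in 5 of the 12 fits that left out 1 array. The other genes named for 1 strain were thus not called to respond differently in the 2 strains. GLO4, a mitochondrial glyoxalase, had a called ratio of 0.44 with t-BOOH (adjusted p = 0.0409), which lost its call in 6 of the 12 fits that left out 1 array (adjusted p up to 0.183).

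The vacuole, where Ycf1 works, was followed through 21 matched genes of 26 names for metal transport and the proton pump that acidifies it. By limma, 0 rose and 1 fell with arsenite in each strain, where 2 in the deletion strain and 3 in the wild type had an unadjusted p under 0.05, and with t-BOOH 4 rose and 1 fell in the deletion strain and 2 rose and 3 fell in the wild type. Of all genes, 6.29% and 12.5% rose with arsenite, 3.71% and 10.5% fell, and 23.8% and 35.6% had an unadjusted p under 0.05, deletion strain first. With t-BOOH 24.1% and 27.3% of all genes rose and 19.4% and 22.2% fell, so these counts of 21 lie near or below the share of all genes. The gene that fell with arsenite was VMA11, a subunit of the proton pump, at -0.61 in the deletion strain (adjusted p = 0.0279) and -0.71 in the wild type (adjusted p = 0.00533). In the deletion strain its call was lost without any 1 of the 4 arsenite arrays and without untreated replicate 2 or 4 (adjusted p up to 0.0916). YHC3, a vacuolar membrane protein, rose with t-BOOH by 1.78 in the deletion strain (adjusted p = 3.17e-07) and 2.33 in the wild type (adjusted p = 6.05e-09) and was lower with arsenite than with t-BOOH by -2.17 and -2.62. Proton pump genes with a called rise with t-BOOH included VMA2 in the deletion strain (0.80, adjusted p = 0.0201) and VMA13 in the wild type (0.78, adjusted p = 0.00603). Leaving out t-BOOH replicate 3 ended the VMA2 call (0.55, adjusted p = 0.126), as did untreated replicate 2 (0.74, adjusted p = 0.0685). Called ratios of deletion over wild type were those of VMA4 (0.54, adjusted p = 0.00410) and VMA22 (0.43, adjusted p = 0.0187) with t-BOOH and of SMF3, a vacuolar iron transporter, with arsenite (-0.51, adjusted p = 0.0191). The VMA22 ratio was not called when t-BOOH replicate 1, 2 or 4 was left out (adjusted p up to 0.143), nor the SMF3 ratio in fits without arsenite replicate 1, 2 or 3 (adjusted p up to 0.164). The VMA4 call was lost at 1 of 14 alternative settings other than single arrays left out (adjusted p = 0.102). FET5, a vacuolar ferroxidase, was higher with arsenite than with t-BOOH in the wild type, by 0.97 (adjusted p = 1.71e-04).

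In S. cerevisiae arsenite can also enter through hexose transporters, and arsenate through phosphate transporters. Of 25 such names 3 were matched, all of phosphate transporters, and by limma none was called with arsenite over untreated in either strain and 0 had an unadjusted p under 0.05. Of all genes, 10% in the deletion strain and 23.1% in the wild type were called in either direction, and 23.8% and 35.6% had such a p. With only 3 genes, a count of 0 is not far from those shares. PHO89, a sodium-coupled phosphate transporter, rose with t-BOOH by 0.72 in the deletion strain (adjusted p = 0.00992) and by 1.05 in the wild type (adjusted p = 4.04e-04). PHO90, a low-affinity phosphate transporter, fell with t-BOOH in the deletion strain (-1.48, adjusted p = 4.57e-06) and had a called ratio of -0.67 with t-BOOH (adjusted p = 0.00410). The PHO90 ratio lost its call at 1 of 14 alternative settings other than single arrays left out (adjusted p = 0.105).

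**Figure D4:**
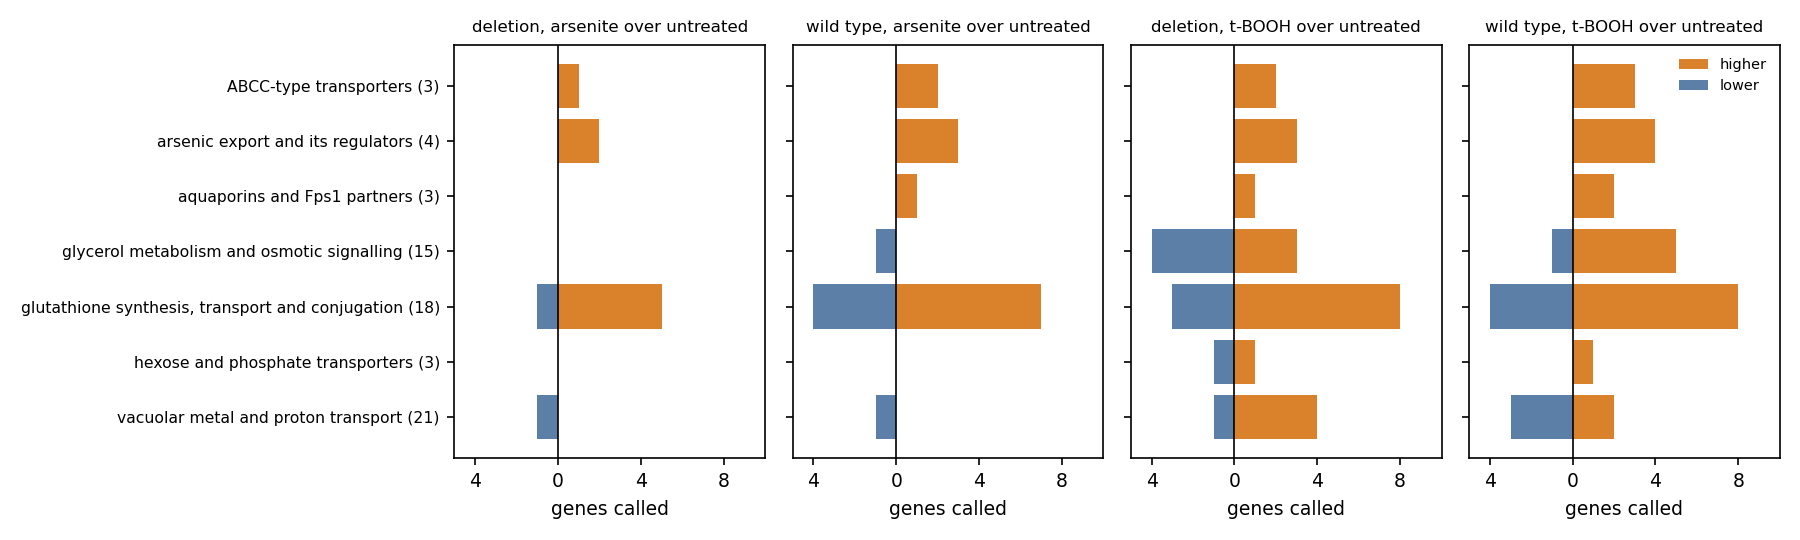
Number of genes called higher (orange, to the right) or lower (blue, to the left) than in untreated cells for the 7 lists, with the number of matched genes in brackets, in the deletion strain and the wild type with arsenite and with t-BOOH. YCF1 and FPS1 are members of the list of arsenic export genes and their regulators and of the lists of their own families. From left to right, 5, 7, 8 and 8 of the 18 glutathione genes were called higher, where 6.29%, 12.5%, 24.1% and 27.3% of all genes were. Of the 4 matched genes of the list of arsenic export and its regulators, 2, 3, 3 and 4 were called higher. These are YCF1, FPS1, ARR2 and ARR1, which is the gene deleted in the deletion strain, while the exporter gene ARR3 was not matched.

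The neighbours of the 2 genes were read in the order of genes of RefSeq assembly ASM251v1. YCF1 is the 866th of 1199 genes from the left end of chromosome F, and HOG1 lies directly to its left. FPS1 is the 20th of 1089 genes from the left end of chromosome E, and GUT1 lies directly to its left. Of the 8 nearest neighbours of YCF1, 1 was called higher with arsenite in the deletion strain and 2 in the wild type, and 2 were called higher with t-BOOH in each strain, with 0 lower except 1 in the wild type with t-BOOH. Of all genes, 6.29% and 12.5% were called higher with arsenite and 24.1% and 27.3% with t-BOOH, deletion strain first in each pair. The shares called lower were 3.71% and 10.5% with arsenite and 19.4% and 22.2% with t-BOOH. With t-BOOH the counts of 8 called higher lie near the share of all genes. One of the wild-type calls with arsenite, HEM15, a ferrochelatase gene (0.52, adjusted p = 0.0487), was lost in 10 of the 12 fits that left out 1 array. KLLA0F19965g, 4 genes to the left, rose in every stress comparison, by 2.31 in the deletion strain and 2.57 in the wild type with arsenite and by 2.23 and 2.10 with t-BOOH, which was more than YCF1. YCS4, a condensin subunit directly to the right, rose with t-BOOH by 1.0 in the deletion strain (adjusted p = 1.01e-04) and 0.67 in the wild type (adjusted p = 0.00384), and had 0.04 and -0.01 with arsenite. The median change of the 8 was 0.13 and 0.00 with arsenite and 0.20 and 0.09 with t-BOOH, deletion strain first in each pair.

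Around FPS1, 0 of 8 neighbours were called by limma with arsenite in the deletion strain, where 2 had an unadjusted p under 0.05, and 1, SBP1, an RNA-binding protein gene, in the wild type, where it was higher (0.71, adjusted p = 0.0167), a call lost without arsenite replicate 1 (0.63, adjusted p = 0.0771) or untreated replicate 2 (0.61, adjusted p = 0.0710). With t-BOOH, SBP1 was higher in the deletion strain (0.54, adjusted p = 0.0408) and GUT1 lower, and in the wild type KLLA0E00529g (0.53, adjusted p = 0.0152) and ATG10, an autophagy enzyme gene (0.87, adjusted p = 0.0118), were higher. Of these, the SBP1 call was lost in 6 of the 12 fits that left out 1 array (adjusted p up to 0.135) and that of KLLA0E00529g without t-BOOH replicate 2 (0.47, adjusted p = 0.0555). Of all genes, 23.8% had an unadjusted p under 0.05 with arsenite in the deletion strain, and 12.5% were called higher in the wild type. With t-BOOH 24.1% and 27.3% were called higher and 19.4% and 22.2% lower, deletion strain first. These counts of 8 lie near or below the shares of all genes. GOS1, directly to the right of FPS1, a Golgi SNARE gene, was not called for any change in level, with values of -0.43 in the deletion strain and -0.09 in the wild type with arsenite and -0.06 and 0.17 with t-BOOH. The ratio of deletion over wild type was called for 1 neighbour with arsenite, KLLA0E00573g (0.75, adjusted p = 0.00920), and for 2 with t-BOOH, KLLA0E00529g (-0.44, adjusted p = 0.0277) and SBP1 (0.65, adjusted p = 0.00548), where 4.3% and 18% of all genes were called. The KLLA0E00573g call was lost without arsenite replicate 2 (0.76, adjusted p = 0.0809) and that of KLLA0E00529g without t-BOOH replicate 1, 2 or 4 (adjusted p up to 0.142). Among the neighbours of YCF1 the ratio was called for ALE1, a lysophospholipid acyltransferase gene, with t-BOOH (0.26, adjusted p = 0.0422) and for none with arsenite or untreated, where 1 and 2 had an unadjusted p under 0.05. Of all genes, 22.6% had such a p with arsenite and 10.4% untreated. The ALE1 call was lost in 10 of the 12 fits that left out 1 array (adjusted p up to 0.182).

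**Figure D5:**
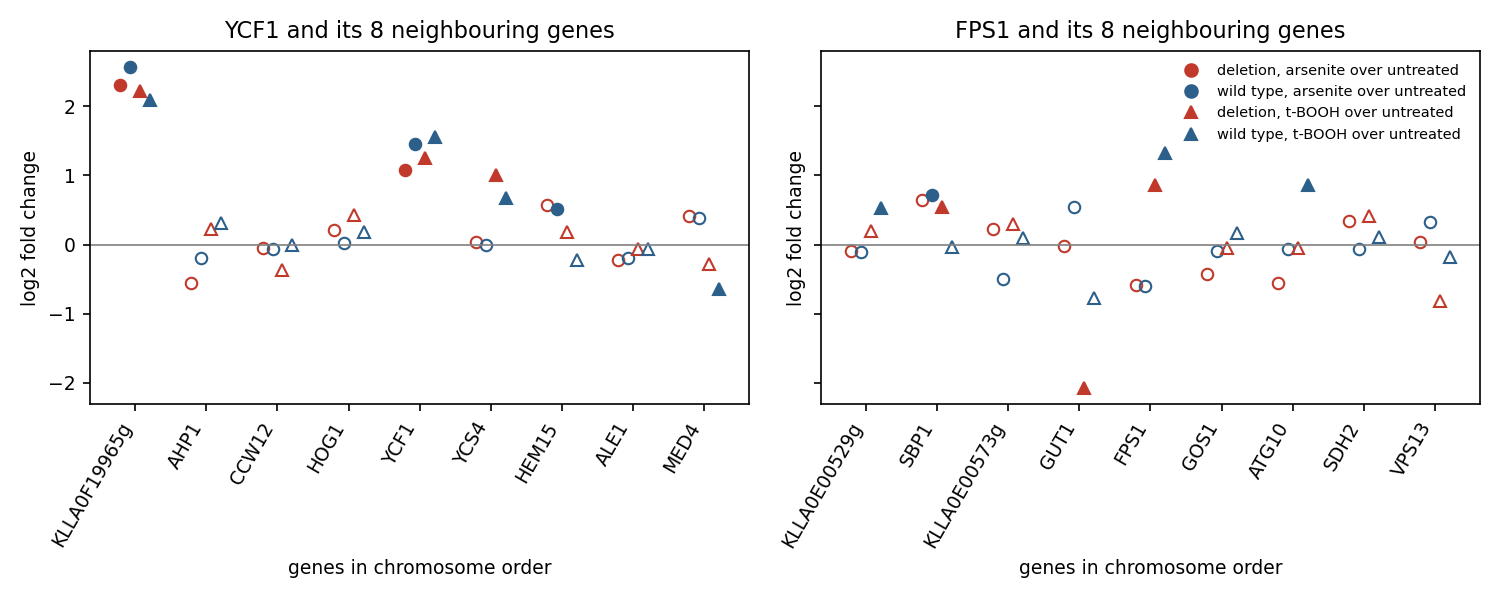
Log2 fold change over untreated cells of YCF1 (left) and FPS1 (right) and of the 4 genes on either side, in chromosome order (red, Klyap8 deletion; blue, wild type; circles, arsenite; triangles, t-BOOH). Filled symbols passed the test at an adjusted p under 0.05. The 4 changes of YCF1, 1.08 to 1.56, lie above those of the adjacent HOG1 and YCS4, and GUT1, next to FPS1, has the most negative value, -2.08, in the deletion strain with t-BOOH.

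The genes whose levels ran most like YCF1 over the 24 channels were TMC1 (Pearson r = 0.97), KLLA0E19889g (0.96), ICT1 (0.96), SRX1 (0.96) and ZTA1 (0.96). For 95% of genes the correlation with YCF1 was below 0.77. The 24 channels share 12 arrays and 6 groups, and within groups the correlations fell to between 0.27 and 0.61, so these values are descriptions and carry no p. In S. cerevisiae TMC1 encodes an AN1-type zinc finger protein, SRX1 sulfiredoxin, which repairs oxidized peroxiredoxin, and ZTA1 an NADPH-dependent quinone reductase. Since these levels chose the genes, their changes are a description. SRX1 had 2.43 in the deletion strain and 3.17 in the wild type for arsenite over untreated, and 3.57 and 3.55 for t-BOOH over untreated.

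The genes most like FPS1 were MSC2 (0.93), KLLA0A03223g (0.92), KLLA0E13861g (0.92), APD1 (0.92) and SAY1 (0.92), and 95% of genes were below 0.80. Within groups their correlations with FPS1 fell to between 0.31 and 0.61. MSC2, which encodes a zinc transporter of the endoplasmic reticulum, had -0.34 in each strain for arsenite over untreated, and 0.88 in the deletion strain and 1.45 in the wild type for t-BOOH over untreated. KLLA0E13861g had -0.77 in the deletion strain and -1.20 in the wild type for arsenite over untreated, and 0.44 and 0.92 for t-BOOH over untreated. YCF1 and FPS1 themselves correlated at 0.24 over the 24 channels and at -0.05 within groups.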

How the data were processed

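Scans of 12 arrays were read with Feature Extraction 10.7.3.1, per the file headers. The deposited median spot and background intensity values are not normalized. The authors' deposited log2 table correlated at 0.991 to 0.999 with the ratios computed here, and its column medians lay between -0.03 and 0.01. How the authors scaled and centred it and the array design's genome build are not given in the sources used here.

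With limma 3.58.1 (R 4.3.3), background was corrected by normexp (offset 50) and ratios by loess within arrays. Control and outlier-flagged spots were left out, and the spots of a gene were averaged. Of 5081 genes, 5069 were well above background on at least 4 arrays and were tested. Ratios were fitted with 3 condition terms and a dye term. Levels were fitted per channel after Aquantile normalization (intraspot correlation 0.63). P-values were Benjamini-Hochberg adjusted. They set each difference against the spread of the gene between arrays, pooled over all conditions of the fit and moderated by eBayes over all genes. The number of arrays limits the precision. RefSeq assembly ASM251v1 gave names (5069 genes matched, 12 not) and gene order.

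Both genes and all lists were chosen with earlier results of these data known. Genes named are both transporters, ARR1 and ARR2, the 2 called genes of each list with the largest change per comparison, 4 neighbours on each side, and the 5 genes most correlated with each transporter. GUT1's values per array and the values of HOG1, SLT2, YOR1 and BPT1 that did not pass were added after seeing them. Alternatives covered signal, background, normalization, dye term, filter, array sets, replicate block, single spots, array weights and eBayes settings. Same-numbered arrays deviated together at correlations of only -0.34 to 0.40, so replicate numbers were not taken as pairs.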

Additional observations from a re-analysis of the deposited data

Results flagged for a closer look

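The wild-type YCF1 level with t-BOOH on replicate 3 was 12.81, apart from 13.28, 13.30 and 13.32 on the other 3 arrays, and its gap was beyond Dixon's 95% limit for 4 samples. Among 18 groups of 4 values checked for these genes it was the 1 so marked, and chance marks about 1 in 20. Without that array the wild-type rise with t-BOOH stayed called, and no single array left out took it outside 1.49 to 1.67.

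The YCF1 ratio of deletion over wild type differed between arsenite and untreated cells by -0.37, with every arsenite array below 0 and every untreated array above 0. In limma's fit this difference had an unadjusted p of 0.0338 and an adjusted p of 0.468. Over the single arrays left out it ran from -0.43 to -0.28, with adjusted p of 0.228 to 0.896. The other alternatives gave -0.43 to -0.30, with adjusted p of 0.101 to 0.546.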

How the results depend on the processing

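The 24 results on YCF1 and FPS1 were recomputed to 612 values, of which 582 kept direction and side of the threshold, 7 lost the call, 9 gained it and 14 changed sign. The 135 calls on other named genes were recomputed to 3398 values, of which 3155 kept direction and call, 234 lost the call and 9 changed sign. The rises of YCF1 with both stresses kept their call in both strains at every setting, and the cause of the changes below was not tested.

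Pairs here give the deletion strain first. Without normalization between arrays, FPS1 lost its calls for arsenite over t-BOOH (-0.34 and -0.84) and for t-BOOH over untreated (0.045 and 0.52), and YCF1 had the opposite sign for arsenite over t-BOOH (0.46 and 0.53). At that setting the median of all genes moved to 0.77 and 0.80 for arsenite over t-BOOH, -0.48 and -0.47 for t-BOOH over untreated and 0.26 in both strains for arsenite over untreated. Other genes that changed sign there were, for arsenite over t-BOOH, ARR2 (0.54) and VMA2 (0.16) in the deletion strain, YCS4 (0.13 and 0.42), and ATG10 (0.21) and BPT1 (0.46) in the wild type, and for t-BOOH over untreated, BPT1 (-0.075) and VMA2 (-0.064) in the deletion strain and YCS4 (-0.19) in the wild type. The share of higher genes among all called rose there to 97.2% and 93.4% for arsenite over t-BOOH, against 45% and 45.6%, and was 11% and 14.2% for t-BOOH over untreated, against 55.4% and 55.2%. For arsenite over untreated it was 98.1% and 91.3%, against 62.9% and 54.3%.

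The FPS1 rise with t-BOOH in the deletion strain also lost its call with the second spot alone (0.73), with these conditions alone (0.87) and without untreated replicate 4 and t-BOOH replicates 1 and 3 (0.52). Without those 3 arrays FPS1 was called for arsenite over untreated (-0.77 and -0.52), and the difference of ratios changed sign for FPS1 between arsenite and untreated (-0.25) and for YCF1 between arsenite and t-BOOH (0.14). With limma's array weights, 0.23 to 6.22, the ratio with t-BOOH was called for FPS1 (-0.52) and YCF1 (-0.27), as were t-BOOH minus untreated (-0.72 and -0.47, FPS1 first) and, for FPS1, arsenite minus t-BOOH (0.81), while YCF1 had 0.11 there.

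Leaving out 1 array gave, for FPS1, -0.77 to -0.43 for arsenite over untreated in the wild type, -0.025 to 0.24 for the ratio with arsenite, -0.12 to 0.35 untreated and -0.21 to 0.26 for their difference. For YCF1 it gave -0.23 to 0.0093 for the ratio with t-BOOH, -0.46 to -0.21 for t-BOOH minus untreated and -0.15 to 0.084 for arsenite minus t-BOOH. Counts over all genes moved with single arrays, from 29 to 443 for the ratio with arsenite, 257 to 1570 with t-BOOH and 19 to 51 untreated. With the replicate block the calls for both genes were unchanged (YCF1 1.08 and 1.45 with arsenite), but the genes called for t-BOOH minus untreated fell to 17, against 144, and for arsenite minus untreated to 1, against 2. With array weights the genes called rose to 1643 for the ratio with arsenite, 2630 with t-BOOH, 50 untreated, 140 for arsenite minus untreated, 1677 for t-BOOH minus untreated and 2364 for arsenite minus t-BOOH, against 218, 914, 31, 2, 144 and 406. In fits on the conditions compared alone they were 732, 5, 3 and 164 for the ratio with arsenite, with t-BOOH, t-BOOH minus untreated and arsenite minus t-BOOH, and 817, against 507, for the level with arsenite over untreated in the deletion strain. Without a dye term 4 were called for arsenite minus untreated, and without normalization between arrays 105 and 344, against 507 and 1169, for arsenite over untreated.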
